A study of Homo sapiens with 13 samples.

Results

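The comparison concerned 513 artificial enhancer arrays whose activity was read both from plasmids and after integration into the genome of the same cell line. A construct was taken when its name appeared in the episomal table of the library with 5 bp spacers, with at least 5 barcodes of at least 5 plasmid reads each, and in the integrated table with at least 3 barcodes. This held for 513 of the 542 constructs named in either table, of which 105 repeated a single motif (homotypic arrays), 405 mixed a pair of motifs and 3, named rd, carried no motif. The cells were MEC1, a human cell line derived from chronic lymphocytic leukaemia (a B cell cancer) and labelled wild type. In the episomal assay the cells were transfected in duplicate and RNA was taken 24 h later, which gave 2 mRNA libraries set against 1 plasmid DNA library. In the integrated assay the cells also carried CRE recombinase and a landing pad with a CMV promoter and GFP between recombination sites, and were kept in 5 ug/ml Blasticidin for 5 days before the library went in by 8 sets of transfections. Cells without GFP were sorted after 10 to 12 days and grown for a further 6 to 7 days. Each of 3 extractions then yielded both RNA and genomic DNA, which gave 3 mRNA and 3 genomic DNA libraries. Nothing in the labels says that the 3 extractions came from separate transfections, and their barcodes are the same, so their spread leaves out the variation between independent integrations and may be technical. Both episomal mRNA libraries share the plasmid DNA library, so their spread leaves that library out.

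In STARR-seq the candidate enhancer sits inside the transcribed reporter, and an active sequence raises the amount of its own transcript. A transfected plasmid is read for a short time, in many copies and outside the chromosome, whereas a cassette exchanged into a landing pad is copied with the chromosome, packed in chromatin and read in the descendants of single cells. CTCF binds insulators and the bases of chromatin loops, NFKB and IRF factors drive inflammatory and interferon transcription, PU1 is a master regulator of myeloid and B cells that also opens chromatin and binds composite sites together with IRF factors, RUNX3, MEF2 and FOXO factors act in lymphocyte development and survival, and MYC drives growth genes.

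The integrated values rested on far fewer barcodes than the episomal ones, and single barcodes weighed heavily in them. The 513 constructs had 235847 usable barcodes in the episomal assay (median 408 per construct, 10 to 2331) and 16162 in the integrated assay (median 29, 3 to 127). The brightest barcode of a construct supplied a median of 39.9% of its integrated mRNA and 2.12% of its episomal mRNA. In 189 constructs (36.8%) 1 barcode gave over 50% of the integrated mRNA, against 2 constructs in the episomal assay. The brightest integrated barcodes are shown because they held the largest shares of the integrated mRNA, and each is the random 12 bp tag of 1 plasmid molecule, printed whole in lower case.
IRF_PU1_2: gcaacaataata
MYC_MYC_MYC_3: tgacaagcgcag
RUNX3_PU1_RUNX3_1: tacacaccatgt
MEF2_IRF_2: taaagtctgatg
NFKB_MYC_NFKB_2: aaaactggactc
A construct name gives the order of the motifs and ends with the number of the flanking context. The tag gcaacaataata held 26.0%, 30.3% and 21.8% of all listed mRNA in the 3 integrated extractions, at 165, 243 and 144 RPM (reads scaled to the library total) of genomic DNA. In the episomal table the same tag had 5 plasmid reads and 1 and 4 mRNA reads. The tag tgacaagcgcag held another 11.9%, 12.0% and 13.2% of the listed integrated mRNA, and tacacaccatgt 1.75%, 1.38% and 1.80%. The other two tags shown each held at most 1.01% in any extraction.

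Activity was the log2 ratio of the mRNA share to the plasmid DNA share of a construct in the episomal assay, and of summed mRNA RPM to summed genomic DNA RPM in the integrated assay. It was turned into a percentile rank from 0 to 100 among the 513 constructs within each replicate, since the assays had very different spreads. The range from percentile 5 to percentile 95 of log2 activity was 4.37 in the episomal and 7.61 in the integrated assay. The median SD of a construct's rank was 0.689 between the 2 episomal replicates and 7.83 between the 3 integrated ones. In the integrated assay 63 constructs had no mRNA in at least 1 extraction and shared the lowest rank there (2.63, 2.83 and 3.31 in extractions 1, 2 and 3), and 4 had none in any. A rank is bounded, so a construct at the bottom of the episomal order could only rise and one at the top could only fall.

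The order of constructs was partly kept after integration. Spearman's correlation between the mean episomal and the mean integrated rank was 0.438 over the 513 constructs, which share libraries, motifs and flanks. It was 0.996 between the episomal replicates and 0.799 to 0.827 between the integrated ones. With the episomal order cut into 5 equal bins, from the lowest to the highest the median integrated rank was 28.1, 39.1, 47.9, 61.0 and 68.3. The percentage of integrated barcodes that gave any mRNA, in which every barcode counts once, ran from 9.63% ± 1.46 (SD, n = 3) in the lowest bin through 13.5% ± 1.74, 21.8% ± 3.15 and 22.8% ± 2.71 to 35.0% ± 4.85 in the highest. Spearman's correlation between the assays was 0.572 among the 114 constructs holding NFKB and 0.377 among the 106 with IRF. It was 0.269 among the 235 with none of CTCF, IRF and NFKB, and 0.0903 among the 92 with CTCF. It was not computed for the other motifs. Among the 84 constructs with at least 50 integrated barcodes it was 0.595.

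With limma on the ranks, 240 of the 513 constructs (46.8%) changed rank at an adjusted p under 0.05. Of these, 125 (24.4%) rose and 115 (22.4%) fell after integration. Without the brightest integrated barcode of each construct 107 of 504 (21.2%) rose and 84 (16.7%) fell. With the integrated rank taken from the share of barcodes with mRNA, 96 (18.7%) rose and 79 (15.4%) fell. By all 3 measures 66 constructs rose and 51 fell. For each construct limma assumed a common variance in both assays, although the integrated ranks varied more. Fewer constructs passed when either episomal replicate was left out, where the variance rests on the integrated replicates alone. The shares called over all constructs are the background for the motif and pair counts that follow. In those counts constructs of 1 motif are different designs and not replicates.

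Homotypic IRF arrays had the largest difference in median rank among the 8 motifs. The median rank of the 13 homotypic IRF arrays was 47.9 and 55.5 in the 2 episomal replicates and 93.3, 94.6 and 93.9 in the 3 integrated ones, so all integrated values lay above all episomal values. Of the 13 arrays 11 rose and none fell. Without the brightest barcode 12 of 12 rose, and by the share of barcodes with mRNA 13 of 13. IRF barcodes carried mRNA in 58.5%, 65.1% and 51.9% of cases in extractions 1, 2 and 3, against 7.32%, 13.0% and 8.13% for rd barcodes.

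The difference between the assays was larger for IRF arrays with more motifs, up to 4 copies. Arrays of 1 IRF motif had median ranks of 57.8 and 58.8 in the episomal replicates and 75.3, 69.1 and 73.4 after integration. Arrays of 4 copies had lower episomal ranks, 42.4 and 48.3, and integrated ranks of 97.6, 98.0 and 97.4. The difference between the integrated and the episomal median was 14.3, 26.9, 42.5 and 52.3 rank points for 1, 2, 3 and 4 copies. The only array of 5 IRF motifs (3 integrated barcodes) stood at 54.1 and 62.1 episomally and at 99.7, 99.7 and 99.5 after integration. By limma the largest homotypic IRF rise was that of 4 motifs in context 3, from 40.1 and 45.3 to 97.6, 97.2 and 99.1, a change of 55.3 (adjusted p = 0.000556).

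PU1 arrays also stood higher after integration, from a low episomal position. The 11 homotypic PU1 arrays had median ranks of 25.8 and 25.1 in the episomal replicates and 50, 50.6 and 56.6 in the integrated ones. Of the 11, 6 rose and none fell, and 7 of 11 rose both without the brightest barcode and by the share of barcodes. PU1 barcodes carried mRNA in 24.1%, 31.0% and 25.9% of cases, above the rd barcodes in every extraction. With 1, 2, 3 and 4 copies, the median rank of PU1 arrays was 50.6, 29.7, 20.0 and 17.0 in episomal replicate 1 and 43.2, 29.7, 18.6 and 16.7 in episomal replicate 2. After integration it was 58.0, 69.5 and 66.0 with 1 copy, 37.1, 45.3 and 43.4 with 3 copies, and 27.0, 30.9 and 65.8 with 4 copies, of which there were 2 arrays with 10 barcodes in all.

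Of all 28 pairs, IRF with PU1 had the largest median rise. Its 12 constructs had median ranks of 26.3 and 26.8 in the episomal replicates and 74.9, 75.9 and 71.6 in the integrated ones, and the median change per construct was 49.9 rank points. Of the 12 constructs 10 rose and none fell, and this count was again 10 without the brightest barcode and 10 by the share of barcodes. With only the barcodes found in both tables, 11 of 12 rose. IRF+PU1 barcodes carried mRNA in 34.9%, 41.5% and 30.3% of cases. Both arrangements of 3 motifs rose in all 3 contexts: IRF_PU1_IRF by 33.4, 50.2 and 72.6 points and PU1_IRF_PU1 by 46.0, 49.6 and 53.4 points in contexts 1, 2 and 3. The array of 1 IRF followed by 1 PU1 also rose in each context, by 35.3, 58.2 and 63.1 points. In the reversed order PU1_IRF rose in context 2 only (68.7 points, adjusted p = 0.000266 by limma), with changes of 0.487 (adjusted p = 0.954) in context 1 and 13.1 (adjusted p = 0.106) in context 3. The difference between the orders was not tested.

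The construct IRF_PU1_2, which held the brightest tag, ranked 44.2 and 39.3 episomally and 99.9 in each integrated extraction. That tag supplied 99.7% of its integrated mRNA. Without it the construct still rose, by 47.2 points (adjusted p = 0.00238 by limma), and 45%, 65% and 50% of its 20 barcodes carried mRNA. On the log2 scale relative to the mean of the 3 rd constructs, the IRF+PU1 median was -0.32 and -0.31 in the episomal replicates and 1.31, 1.02 and 1.39 in the integrated ones. The sign of this value thus differed between the assays in every replicate.

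IRF with the other motifs gave smaller and mixed changes. Of the 12 IRF+MYC constructs 7 rose and none fell, with median ranks of 31.6 and 30.9 in the episomal replicates and 56.3, 58.8 and 51.7 in the integrated ones. Of the 19 FOXO+IRF constructs 9 rose and 1 fell. IRF+NFKB joined the motifs with the highest integrated arrays, but none of its 12 constructs rose and 5 fell, with median ranks of 80.02 and 78.6 in the episomal replicates and 66.9, 70.6 and 70.6 in the integrated ones. The number that fell was 3 without the brightest barcode and 2 by the share of barcodes.

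NFKB arrays were near the top in both assays. The 15 homotypic NFKB arrays had a median rank of 96.8 in both episomal replicates and 84.7, 87.0 and 85.7 in the integrated ones. None rose and 2 fell, and without the brightest barcode none fell. Arrays of 5 NFKB motifs ranked high in both orders, with median ranks of 99.1 and 99.3 episomally and 98.7, 97.6 and 96.6 after integration, where the array of 5 IRF motifs lay above them in each extraction. Single NFKB motifs had 57.6 and 59.2 in the episomal replicates and 39.3, 42.0 and 53.1 in the integrated ones. NFKB barcodes carried mRNA in 43.1%, 51.1% and 37.0% of cases, second to IRF among the 8 motifs in every extraction.

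Of the 114 constructs with NFKB, 73 lay in the highest of the 5 bins of the episomal order. Of the 99 mixed constructs with NFKB 9 rose and 41 fell, and without the brightest barcode 7 of 98 rose and 29 fell. In that highest bin 35 of the 73 with NFKB, homotypic or mixed, fell, beside 48 of all 103 constructs. NFKB+RUNX3 had median ranks of 82.9 and 81.0 in the episomal replicates and 48.4, 56.3 and 42.4 in the integrated ones, with 0 of 12 constructs higher and 7 lower. By the other measures the number that fell was 8 of 12 (without the brightest barcode) and 8 of 12 (by the share of barcodes). MYC+NFKB had median ranks of 86.5 and 84.8 in the episomal replicates and 57.6, 61.9 and 64.4 in the integrated ones, with 8 of 12 constructs lower. This count was 4 without the brightest barcode and 5 by the share of barcodes. NFKB+PU1 had median ranks of 72.1 and 71.2 in the episomal replicates and 71.4, 68.5 and 77.5 in the integrated ones, with 4 of 12 constructs higher and 3 lower. By either alternative, without the brightest barcode or by the share of barcodes, 3 rose and none fell.

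Among combinations of FOXO, MEF2 and RUNX3 with one another, those with FOXO had high episomal ranks and MEF2+RUNX3 middle ones. All stood at middle to low ranks after integration. FOXO+RUNX3, the pair with the largest median fall, had median ranks of 74.8 and 75.2 in the episomal replicates and 40.3, 50 and 32.7 in the integrated ones. The median change of its 21 constructs was -40.4 points. Of these 12 fell and 3 rose. Without the brightest barcode 9 fell and 3 rose, and by the share of barcodes 10 fell and none rose. FOXO+MEF2 stood at 81.2 and 82.7 in the episomal replicates and at 48.6, 44.5 and 51.3 in the integrated ones. Of its 12 constructs 9 fell and none rose, while 6 fell without the brightest barcode and 5 by the share of barcodes. MEF2+RUNX3 stood at 58.3 and 59.9 episomally and at 31.4, 13.4 and 27.7 after integration, with 10 of 18 constructs lower and 1 higher. The number that fell was 10 without the brightest barcode and 7 by the share of barcodes, with none higher by either.

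The 3 FOXO+RUNX3 constructs that rose held 1 RUNX3 motif each, and 1 barcode gave over 50% of the integrated mRNA in each. Without that barcode all 3 still rose. The single RUNX3 motif was noticed after the values were seen. FOXO_RUNX3_FOXO_FOXO_2 also holds 1 RUNX3 motif and had a change of -57.6 points. FOXO_RUNX3_FOXO_1 ranked 70.1 and 70.5 episomally and 97.8, 95.8 and 94.6 after integration. Its brightest barcode held 62.3% of its integrated mRNA, and by the share of barcodes its change was -4.29 (adjusted p = 0.483 by limma). The alternating 4-motif arrays in contexts 1 and 2 were at the other end. FOXO_RUNX3_FOXO_RUNX3_1 ranked 84.9 and 85.1 episomally and 2.63, 7.90 and 3.31 after integration, and had no mRNA in extractions 1 and 3. Its 14 barcodes limit what an absence of mRNA shows. RUNX3_NFKB_3, with 42 barcodes and mRNA in every extraction, ranked 73.2 and 73.8 episomally and 9.45, 9.26 and 21.9 after integration, a change of -59.9 (SE 5.07, adjusted p = 0.00129 by limma).

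Homotypic arrays of these motifs stood lower than these mixed arrays already in the episomal assay. The 15 homotypic FOXO arrays had median ranks of 49.6 and 50.6 in the episomal replicates and 42.4, 30.7 and 26.4 in the integrated ones, with 2 higher and 3 lower. No FOXO array passed in either direction without the brightest barcode, while by the share of barcodes 2 rose and 2 fell. Of the 10 homotypic MEF2 arrays 4 fell and none rose, with median ranks of 38.1 and 40.9 in the episomal replicates and 27.8, 24.3 and 15.6 in the integrated ones. Homotypic RUNX3 arrays were low in both assays, at 25.2 and 24.7 and at 22.1, 13.9 and 17.1, with 1 of 15 higher and 4 lower. Of the MEF2 arrays 2 of 9 fell without the brightest barcode, and of the RUNX3 arrays none rose and 1 fell. By the share of barcodes 2 MEF2 and 3 RUNX3 arrays fell. RUNX3 barcodes carried mRNA in 5.14%, 7.02% and 4.79% of cases, the lowest of the 8 motifs in extractions 1, 2 and 3.

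MYC arrays had no common direction. The 15 homotypic MYC arrays had median ranks of 49.8 and 42.6 in the episomal replicates and 50.6, 47.5 and 59.6 in the integrated ones, with 5 higher and 5 lower. Leaving out the brightest barcode, 3 rose and 4 fell, and by the share of barcodes none rose and 4 fell. Arrays of 1 MYC motif stood at 39.7 and 37.1 in the episomal replicates and at 76.1, 83.7 and 80.4 in the integrated ones. Arrays of 5 stood at 57.2 and 47.5 in the episomal replicates and at 8.87, 19.4 and 18.4 in the integrated ones. The 3 arrays of 1 MYC motif rose, but without the brightest barcode only MYC_2 did, and by the share of barcodes none did. MYC_MYC_MYC_3 ranked 33.0 and 32.1 episomally and 99.5, 99.5 and 99.7 after integration, with 96.4% of its integrated mRNA from tgacaagcgcag. Only 7.87%, 6.30% and 6.30% of its 127 barcodes carried mRNA, and by that share it did not rise (change of -12.8, adjusted p = 0.0815 by limma).

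CTCF constructs were at the bottom of the episomal order and still in the lower part of the integrated one. The 11 homotypic CTCF arrays had median ranks of 2.05 and 3.22 in the episomal replicates and 23.9, 50.4 and 24.3 in the integrated ones. Of the 11, 5 rose and none fell, and the number was 4 both without the brightest barcode and by the share of barcodes. Of all 92 constructs with CTCF, which had median ranks of 9.36 and 9.16 in the episomal replicates and 28.4, 25.6 and 28.7 in the integrated ones, 38 rose and none fell. Without the brightest barcode 26 of 90 rose and 2 fell, and by the share of barcodes 22 rose and none fell. In the lowest of the 5 bins of the episomal order, which held 86 of these 92 constructs, 36 of the 86 with CTCF rose, as did 6 of the 17 without it. The median integrated rank there was 26.9 with CTCF and 30.3 without it.

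After integration CTCF barcodes carried mRNA about as often as rd barcodes. The shares were 9.24%, 12.7% and 6.05% for homotypic CTCF arrays and 7.32%, 13.0% and 8.13% for rd, so the 2 groups overlapped. In the episomal assay the log2 activity of the homotypic CTCF arrays relative to rd was -1.63 and -1.57 at the median, below rd in both replicates. Constructs with CTCF had 14169 of the 235847 episomal barcodes and 3139 of the 16162 integrated ones. The episomal table lists a barcode only where each library had at least 1 read, so silent barcodes of weak constructs can be missing there. This would overstate their episomal activity, by an amount that was not measured. The integrated table also lists barcodes without mRNA (63.4% had none in any extraction), so the 2 assays were filtered in unlike ways. The pairs of CTCF with PU1, RUNX3 and IRF were among the 5 pairs with the largest median rise, at 24.4, 24.0 and 23.3 points, with 5 of 10, 6 of 10 and 5 of 10 constructs higher. These counts were 4, 4 and 3 without the brightest barcode, and 2, 3 and 2 by the share of barcodes.

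The constructs without a motif did not form a common baseline after integration. In the 2 episomal replicates they ranked close together, at 34.6 and 35.4 for rd_1, 40.3 and 36.6 for rd_2, and 28.0 and 29.9 for rd_3. In the 3 integrated extractions they ranked 59.0, 61.1 and 50.8 for rd_1, 83.3, 93.5 and 83.9 for rd_2, and 15.9, 13.2 and 13.0 for rd_3. In log2 activity, rd_2 lay 1.84, 2.44 and 1.99 above and rd_3 2.28, 2.70 and 2.31 below their common mean. The brightest barcode gave 84.0% of the integrated mRNA of rd_2. No rd construct passed the rank test without the brightest barcode. Values relative to the rd mean therefore depend on 3 constructs with 123 integrated barcodes.

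Relative to rd, 335 of 542 constructs (61.8%) were higher and 166 (30.6%) lower in the episomal assay by edgeR (92.4% called). In the integrated assay 147 of 513 (28.7%) were higher and 94 (18.3%) lower by limma (47.0% called). The references were unlike: the summed rd reads in the episomal fit, and the mean log2 value of the 3 rd constructs in the integrated fit. How this changes the shared and opposite calls was not tested. Of the shared constructs, 122 were higher than rd in both assays and 51 lower in both. Another 34 were higher in the episomal and lower in the integrated assay: MEF2+RUNX3 gave 5 of them, and FOXO, FOXO+RUNX3, MYC and NFKB+RUNX3 gave 4 each. The opposite held for 18 constructs, 6 of them IRF+PU1. The log2 difference between the assays passed the limma test for 149 constructs (29.0%), of which 60 (11.7%) were higher and 89 (17.3%) lower after integration. Relative to the median construct the balance turned, with 94 higher and 63 lower, and relative to the rd construct of the same context 97 were higher and 140 lower. The counts were 2 and 6 without episomal replicate 1, 3 and 6 without episomal replicate 2, and 70 and 155 without integrated mRNA replicate 3. Without integrated replicate 1 the limma fit against rd gave 84 higher and 50 lower constructs.

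A least-squares fit of each replicate's ranks on the copies of the 8 motifs and the context set homotypic and mixed arrays on 1 scale. It accounted for 64.1% and 65.2% of the variance of the ranks in the episomal replicates and 32.9%, 31.7% and 33.1% in the integrated ones. The fitted coefficient per CTCF copy was -29.4 ± 0.0692 rank points (SD, n = 2) episomally and -10.3 ± 0.723 (SD, n = 3) after integration. The sign of the coefficient turned for IRF, from -1.72 ± 0.862 to 13.2 ± 0.451, and for PU1, from -7.15 ± 0.357 to 5.13 ± 1.98. It turned the other way for MEF2, from 4.47 ± 0.550 to -2.53 ± 0.883. NFKB stayed the strongest positive motif of the episomal assay at 15.3 ± 0.0396 and was at 10.4 ± 0.401 after integration, below IRF. FOXO went from 4.52 ± 0.147 to 1.06 ± 0.821 and RUNX3 from -5.54 ± 0.144 to -7.41 ± 0.417. For these 7 motifs the replicates of the 2 assays did not overlap, and the exact two-sided permutation p of 0.1 is the smallest that 2 against 3 replicates can give. MYC stood at -5.45 ± 0.628 and -4.44 ± 0.999 (exact permutation p = 0.3). The fit assumes an equal step for every copy, which the homotypic arrays did not all show. In the episomal replicates, arrays of 1 CTCF motif already had median ranks of 1.46 and 3.41, and arrays of 3 had 1.27 and 1.46. Homotypic IRF arrays ranked above rd there (47.9 and 55.5 against 34.6 and 35.4 at the median), although the IRF coefficient was negative.

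Several pairs changed rank by more than an average of their homotypic arrays. As a reference for each mixed construct, the rank changes of the homotypic arrays of its motifs were averaged in proportion to its copies. The mean change of the IRF+PU1 constructs was 45.3 points against 27.0 for this reference, with 10 of 12 constructs above it. In the opposite direction NFKB+RUNX3 had -33.1 against -8.25, FOXO+RUNX3 -29.7 against -7.26, MYC+NFKB -24.7 against -4.98, and FOXO+MEF2 -32.8 against -14.1. IRF+NFKB had -12.1 where the reference was 10.6, with 0 of 12 constructs above it. The pairs of CTCF with PU1 and MYC lay near their reference, at 27.6 against 27.9 and 20.0 against 19.4. Pairs and homotypic arrays started from different episomal ranks. The mean of the replicate medians was 26.6 episomally and 74.1 after integration for IRF+PU1. It was 51.7 and 93.9 for homotypic IRF, and 25.4 and 52.4 for PU1. For NFKB+RUNX3 it was 81.9 and 49.1, for NFKB 96.8 and 85.8, and for RUNX3 24.95 and 17.7. After integration both pairs thus lay between their homotypic arrays. FOXO+RUNX3 then stood at 41.0, above FOXO (33.2) and RUNX3. These departures are descriptions over designs and were not tested.

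Of the 240 constructs that changed rank, 221 had at least 10 integrated barcodes and no overlap of ranks between the assays. Of these 115 rose and 106 fell. Most constructs meet these conditions: of all 513, 375 had no such overlap and 446 had at least 10 integrated barcodes. The largest rise was that of 3 CTCF motifs in context 2 (CTCF_CTCF_CTCF_2), which ranked 6.14 and 9.45 episomally and 93.5, 92.7 and 95.2 after integration, a change of 86.0 (SE 2.89, adjusted p = 0.000261 by limma). It was followed by CTCF_NFKB_3 (85.9), FOXO_CTCF_FOXO_FOXO_2 (84.9), 5 RUNX3 motifs in context 2 (83.7), CTCF_MYC_2 (79.0), RUNX3_PU1_RUNX3_1 (74.6), CTCF_PU1_3 (72.8), IRF_PU1_IRF_3 (72.6), CTCF_IRF_1 (69.5) and PU1_IRF_2 (68.7). In all 10 the brightest barcode gave over 50% of the integrated mRNA, from 55.0% in CTCF_MYC_2 to 100% in the 5-motif RUNX3 array, where 1 of 15 barcodes carried mRNA. Without the brightest barcode the RUNX3 array had a change of -4.27 (adjusted p = 0.36) and CTCF_PU1_3 of 4.00 (adjusted p = 0.769), while the other 8 still rose by 34.6 to 73.6 points. By the share of barcodes 5 of the 10 rose: IRF_PU1_IRF_3 (60.0), PU1_IRF_2 (53.4), FOXO_CTCF_FOXO_FOXO_2 (47.2), CTCF_NFKB_3 (41.9) and CTCF_IRF_1 (40.9).

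The 10 largest falls all held RUNX3 or MEF2, a trait picked after the list was seen. Of all 513 constructs 112 held RUNX3 and 126 held MEF2, and 18 of these held both. After FOXO_RUNX3_FOXO_RUNX3_1 (-80.4) came FOXO_RUNX3_FOXO_RUNX3_FOXO_2 (-74.9), FOXO_RUNX3_FOXO_RUNX3_2 (-62.0), MEF2_RUNX3_MEF2_2 (-61.1), MEF2_NFKB_2 (-60.0), RUNX3_NFKB_3 (-59.9), MEF2_NFKB_3 (-59.7), RUNX3_MEF2_2 (-58.8), FOXO_RUNX3_FOXO_FOXO_2 (-57.6) and MEF2_NFKB_MEF2_3 (-57.5). Of these 10, 5 had no mRNA in at least 1 extraction. Without the brightest barcode 9 of the 10 still fell, all but MEF2_NFKB_2 (-52.4, adjusted p = 0.0663 by limma). This takes mRNA away from a construct, so it is a weak check of a fall. In FOXO_RUNX3_FOXO_RUNX3_1, FOXO_RUNX3_FOXO_RUNX3_FOXO_2 and MEF2_RUNX3_MEF2_2 only 1 barcode had mRNA, so none was left. By the share of barcodes all fell but MEF2_NFKB_2 (adjusted p = 0.123 by limma) and MEF2_NFKB_MEF2_3 (adjusted p = 0.0726). MEF2_NFKB_3 is an example with mRNA throughout: it ranked 91.5 and 92.9 episomally and 27.2, 36.0 and 34.4 after integration, and 21.7%, 17.4% and 8.70% of its 23 barcodes carried mRNA.

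Among constructs with at least 10 integrated barcodes, the highest mean ranks over both assays were those of NFKB_NFKB_NFKB_NFKB_2, NFKB_MEF2_2, NFKB_MYC_NFKB_2, NFKB_MEF2_NFKB_3 and NFKB_FOXO_NFKB_1. NFKB_MYC_NFKB_2 had 68 integrated barcodes, ranked 95.4 and 95.2 episomally and 94.4, 94.1 and 92.9 after integration, and carried mRNA in 48.5%, 50% and 45.6% of its barcodes. In NFKB_MEF2_NFKB_3, which ranked 98.0 and 98.2 episomally and 90.6, 90.6 and 91.7 after integration, no barcode gave more than 7.96% of the integrated mRNA. All 5 held NFKB, as did 114 of all 513 constructs and 73 of the 103 in the highest episomal bin. The lowest under the same minimum were RUNX3_RUNX3_RUNX3_RUNX3_RUNX3_1, with no integrated mRNA from 17 barcodes, CTCF_MEF2_3, MYC_CTCF_MYC_1, FOXO_CTCF_FOXO_CTCF_2 and RUNX3_CTCF_3. Of these 4 of 5 held CTCF, as did 92 of all 513 constructs and 86 of the 103 in the lowest episomal bin. Both lists were picked on a mean that includes the episomal rank. RUNX3_CTCF_3 ranked 11.2 and 6.73 episomally and 2.63, 6.53 and 16.7 after integration, and its 48 barcodes carried mRNA in 0%, 2.08% and 4.17% of cases.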

How the data were processed

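Per the labels' protocols, barcodes were read from mRNA, plasmid DNA and genomic DNA; no counting tool is named in the sources used here. For the episomal assay the authors deposited raw counts of reads per barcode (4206555 plasmid, 4389405 and 3850658 mRNA reads). Barcodes without a construct name (18.5%, 16.6% and 16.6% of reads) entered no library size or test. For the integrated assay the authors deposited RPM per barcode, for barcodes with at least 2 RPM of genomic DNA in every extraction; its read depth is unknown, so no count test was run on it. PCR reads had no molecular identifiers, so read numbers overstate independent molecules. Another 4 columns of per-sample values were not used.

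Reads or RPM were summed per construct, with a pseudocount of 0.5 RPM for log2 ratios, which understates the fold of weak constructs. Ranks and log2 activities were compared between assays with limma 3.58.1 (lmFit and eBayes, 2 episomal against 3 integrated replicates), the integrated assay against rd likewise, and the episomal assay with edgeR 4.0.16 (quasi-likelihood, library sizes set on the rd reads). P-values were Benjamini-Hochberg adjusted over all constructs tested, with a threshold of 0.05. The scripts were tested on simulated data. The constructs named were the 10 largest rises and falls past the threshold with at least 10 integrated barcodes and no overlap of ranks, the 5 pairs with the largest median rise and fall, the 5 highest and lowest in both assays, rd and homotypic arrays; other constructs and pairs were chosen after their values were seen. Members and lists were chosen with earlier results of these data known. The alternatives varied read, barcode and genomic DNA minimums, the brightest barcode, shared barcodes, pseudocount, reference, scaling, tool and replicates; the rank by the share of barcodes and the alternatives of the copy fit were added after seeing the data.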

Additional observations from a re-analysis of the deposited data

Results flagged for a closer look

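In 8 groups of constructs the median log2 activity relative to rd had opposite signs in every replicate of the 2 assays; the difference was not tested. From the episomal to the integrated assay, it was 0.53 and -0.88 for homotypic FOXO arrays, 0.23 and -1.75 for MEF2 arrays, 0.30 and -1.21 for FOXO+MYC, 1.42 and -0.43 for FOXO+RUNX3, 0.60 and -1.21 for MEF2+MYC, and 0.79 and -1.56 for MEF2+RUNX3. It went the other way for IRF+MYC (-0.12 and 0.27) and IRF+PU1 (-0.32 and 1.24). All 8 depend on the rd mean.

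Of the 20 constructs with the largest rank changes, 15 also differed between the assays on the log2 scale (limma, adjusted p under 0.05). Of all 513 constructs 149 (29.0%) did. The ranks were made from the same activities, so this is not separate evidence. FOXO_RUNX3_FOXO_RUNX3_1 (adjusted p = 0.0262) had no mRNA in 2 of 3 extractions, so its size depends on the pseudocount and is not given. For the other 14 the difference was 4.20 for CTCF_CTCF_CTCF_2, 3.95 for CTCF_NFKB_3, 4.67 for FOXO_CTCF_FOXO_FOXO_2, 4.28 for 5 RUNX3 motifs in context 2, 3.60 for CTCF_MYC_2, 4.29 for RUNX3_PU1_RUNX3_1, 3.28 for CTCF_PU1_3, 3.87 for IRF_PU1_IRF_3, 2.69 for CTCF_IRF_1 and 3.41 for PU1_IRF_2. It was -4.02 for RUNX3_NFKB_3, -3.50 for MEF2_NFKB_3, -3.46 for RUNX3_MEF2_2 and -3.55 for MEF2_NFKB_MEF2_3.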

How the results depend on the processing

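Barcode number and the 2 episomal replicates limit these results. Leaving out 1 replicate at a time gave 64 to 141 constructs with a higher and 34 to 135 with a lower rank, and 2 to 83 higher and 6 to 155 lower on the log2 scale. The low counts came without an episomal replicate, where the variance rests on the integrated replicates alone. The main fits also assumed a common variance for both assays. Of the 125 and 115 constructs that rose and fell, 82 and 68 passed in the same direction without the brightest barcode, 75 and 70 with barcodes in both tables, and 74 and 61 by the share of barcodes. On the log2 scale, 38 were higher with at least 10 RPM of genomic DNA per barcode, 27 with barcodes in both tables, 97 against the rd construct of the same context and 94 against the median construct (63 lower). Lower were 31 without the brightest barcode, 155 with barcodes in both tables, 155 without integrated mRNA replicate 3, 140 against the rd construct of the same context and 179 with array weights. The Spearman correlation of the 2 assays was 0.401 with at least 10 integrated barcodes, 0.389 with at least 10 RPM of genomic DNA, 0.5003 without the brightest barcode, 0.364 with shared barcodes and 0.553 by the share of barcodes. Against rd the integrated fit gave 84 to 138 higher and 50 to 83 lower constructs without 1 replicate (84 and 50 without replicate 1), and 69 higher and 287 lower with no centring on rd. The episomal fit gave 231 higher and 245 lower with TMM scaling, and without 1 episomal mRNA replicate it had no residual degrees of freedom and no test.

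The replicate numbers of mRNA and genomic DNA did not pair the extractions by the data (correlation of deviations -0.0184, 0.0457 and -0.0271). With a replicate block the integrated fit gave 111 higher and 72 lower constructs against 147 and 94 without it. The rank fit held no block. With the mean genomic DNA of the 3 extractions as denominator, in place of that of the same number, 135 rose and 117 fell in rank. The homotypic MYC median change turned to -12.4 without the brightest barcode, -8.96 with shared barcodes and -16.2 by the share of barcodes. CTCF+NFKB turned to -1.84 with shared barcodes. FOXO+PU1 turned to -0.743 with at least 20 integrated barcodes and -2.71 with at least 10 RPM of genomic DNA. IRF+MEF2 turned to -5.92 without the brightest barcode and -3.53 by the share of barcodes, and MEF2+PU1 to 1.51 with at least 20 barcodes and 1.07 by the share. The integrated minus episomal difference in the MYC effect per copy was 1.01 in the main fit. This difference turned to -0.467 and -0.481 with at least 10 and 20 integrated barcodes and -0.321 by the share. The 5-motif RUNX3 array in context 2 turned to -4.27 without the brightest barcode, RUNX3_PU1_RUNX3_1 to -4.00 by the share and CTCF_PU1_3 to -1.72 with shared barcodes. The causes were not tested.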
